A study of Mus musculus with 10 samples.

Results

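Chromatin factors that hold back reprogramming are represented here by 9 genes, *Dot1l*, *Chaf1a*, *Chaf1b*, *Mbd3*, *Chd4*, *Gatad2a*, *Kdm1a*, *Ncor1* and *Hdac3*, out of 21000 protein-coding genes of the mouse annotation. They were chosen by name, for the DOT1L, CAF-1, NuRD, LSD1 and NCoR machineries. For each gene, every ZFP266 DamID-seq peak that shared at least 1 base with the gene or with the 50 kb on either side of it was taken. This gave 17 of the 15119 peaks of the list.

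ZFP266 is a KRAB zinc finger protein, and its sites in mouse embryonic fibroblasts (MEFs) were mapped by DamID-seq, in which a protein fused to the bacterial methylase Dam marks GATC sites near the places where it sits. In 5 samples, 129 strain wild-type MEFs were nucleofected with the plasmid PGK-mO-Dam-Zfp266, and in 5 samples with PGK-mO-Dam, which gives the background of freely diffusing Dam. Both plasmids carry mOrange as the leading reading frame under the PGK promoter, and Dam or Dam-ZFP266 is made only at a low level by reinitiated translation. The cells were sorted 48 h after nucleofection. The labels name mOrange as the sorted marker, whereas the study's methods name GFP. ZFP266 was thus supplied from a plasmid next to the cells' own protein, and the fusion's sites need not equal those of the endogenous protein. The authors called 1 list of peaks on the 10 samples together. Since no value belongs to a single sample, the depth is unknown, the error between replicates cannot be given, and no test over samples was possible for any peak.

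In background terms, differentiated cells resist conversion to pluripotency in part because their chromatin is actively maintained. DOT1L methylates histone H3 in transcribed genes, CAF-1 assembles nucleosomes behind the replication fork, NuRD joins nucleosome remodelling to histone deacetylation, LSD1 (encoded by *Kdm1a*) removes methyl groups from histone H3, and NCoR brings HDAC3 to transcription factors. Lowering several of these activities is known to raise the yield of iPSCs, although the outcome for NuRD has differed between systems. Peaks were also searched for B1 SINEs, short retrotransposed repeats, and for motifs of AP-1, the dimer of FOS and JUN proteins.

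ZFP266 peaks of the full list lay in or near most of the group. Counting the gene and the 50 kb around it, 8 of the 9 genes had a peak, compared with 49.7% of all protein-coding genes. The peak lay within the gene itself for 4 of them, *Dot1l*, *Gatad2a*, *Kdm1a* and *Ncor1*, compared with 17.1% of all protein-coding genes. Among genes no shorter than *Mbd3* and no longer than *Ncor1*, the shortest and the longest of the 9, that share was 18.8%. The 4 genes were also the 4 longest of the group, from 40.3 kb for *Dot1l* to 141 kb for *Ncor1*, and the part of gene length in these counts was not tested. The *Ncor1* peaks lie in the gene only through a curated transcript that ends before the gene's far end. *Chd4* had no peak in the gene or within 50 kb, with its nearest 121 kb away. The counts depended on how strictly the peaks were chosen. The only peaks of *Chaf1a*, *Mbd3* and *Hdac3* had a false discovery rate q of 0.0937, 0.0730 and 0.0635. With only peaks of a q under 0.05 and a signal value above 1, 3 of the 9 genes had a peak in the gene or within 50 kb (21.9% of all protein-coding genes) and 1 had it in the gene (5.99%). The study's methods name limits of this form as an example, on the false discovery rate and the log2 fold change, and whether the signal value is that fold change is not stated.

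**Figure D1:**
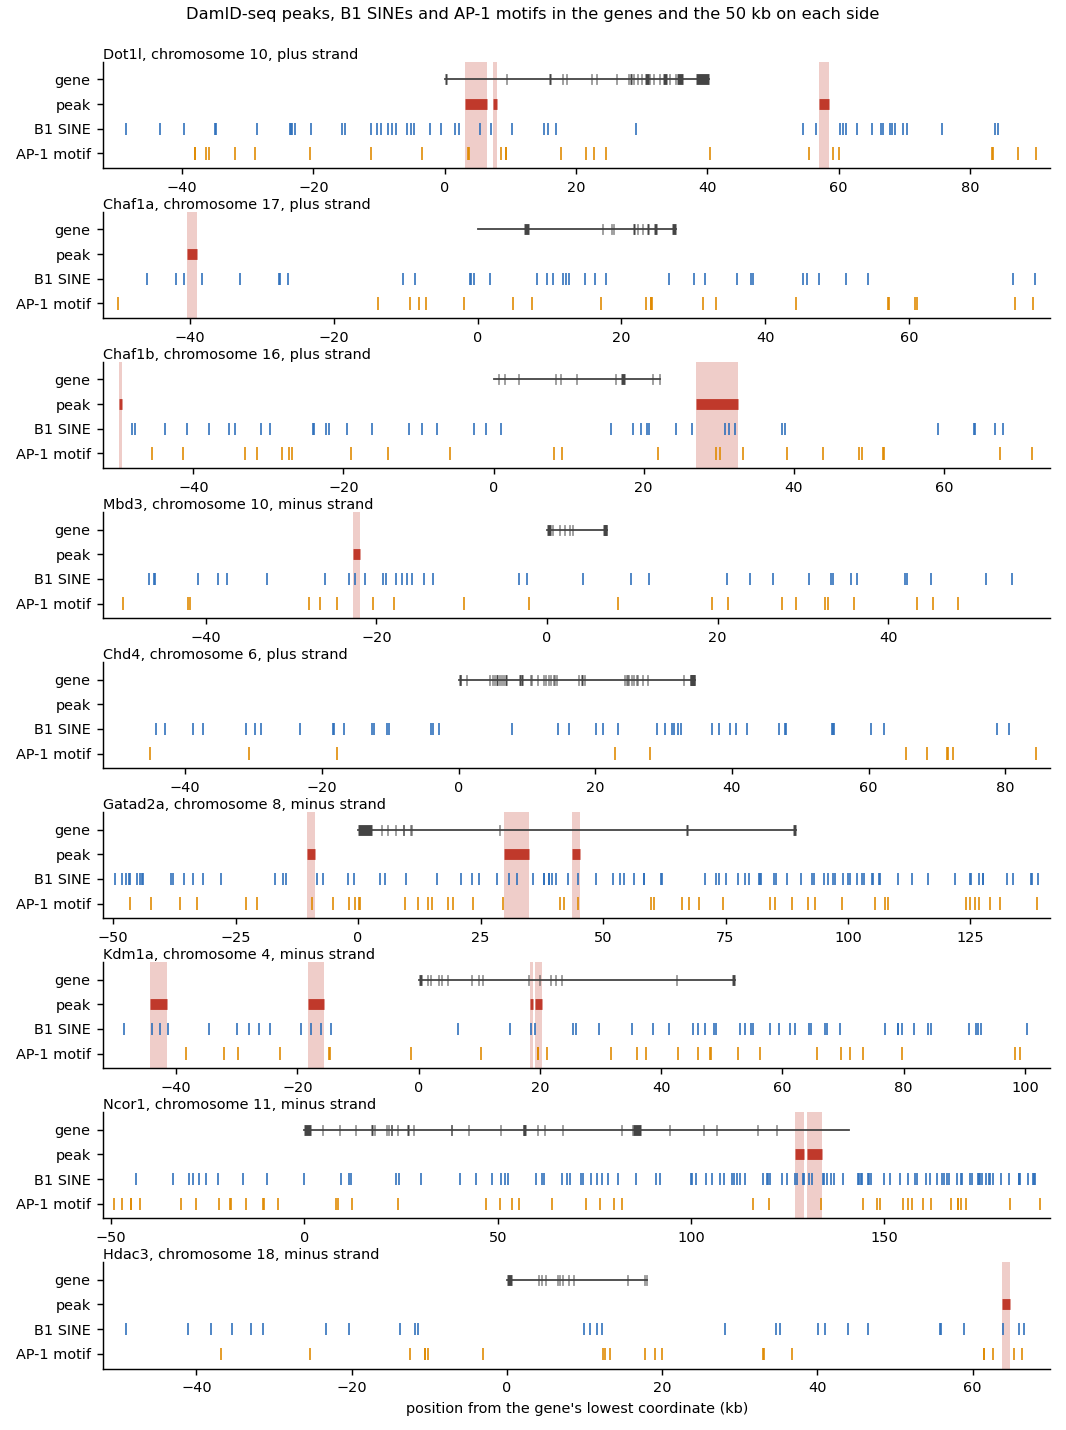
Maps of the 9 genes with the 50 kb on each side; the x axis is the distance in kb from the lowest coordinate of the gene, and the rows show exons of the curated transcripts, DamID-seq peaks (red, shaded), B1 SINEs (blue) and AP-1 motifs (orange). *Dot1l*, *Gatad2a*, *Kdm1a* and *Ncor1* each hold 2 peaks within the gene, and the window of *Chd4* holds 0.

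Of the 17 peaks, 8 lay inside a member gene and 9 outside, 3 of these upstream and 6 downstream. Of the 9 outside, 6 lay in another protein-coding gene. Over the whole list, 7013 of the 15119 peaks lay in a protein-coding gene. Each peak is a run of whole fragments between GATC sites, since all 15119 peaks started and ended at a GATC. They were from 403 to 5588 bp long, with a median of 1626 bp against 1777 bp for the whole list.

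The strength of the peaks was ordinary for the list. Their signal value, in which the authors' list compares Dam-ZFP266 with Dam only on a scale that is not stated, had a median of 0.996 (range 0.428 to 1.31), and that of all peaks was 0.898. A signal value above 2 was reached by 0 of the 17 peaks and by 27 of all peaks. The −log10 q, which rises as the false discovery rate q falls, had a median of 1.39 for the 17 peaks and 1.33 for all. A q under 0.05 was held by 10 of the 17 peaks (58.8%, all peaks 52.5%), and together with a signal value above 1 by 4 of them (23.5%, all peaks 26.4%). The score, which follows the −log10 q up to a limit of 1000, reached that limit in 2 peaks, at *Dot1l* and *Chaf1b*, as it did in 6.26% of all peaks.

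**Figure D2:**
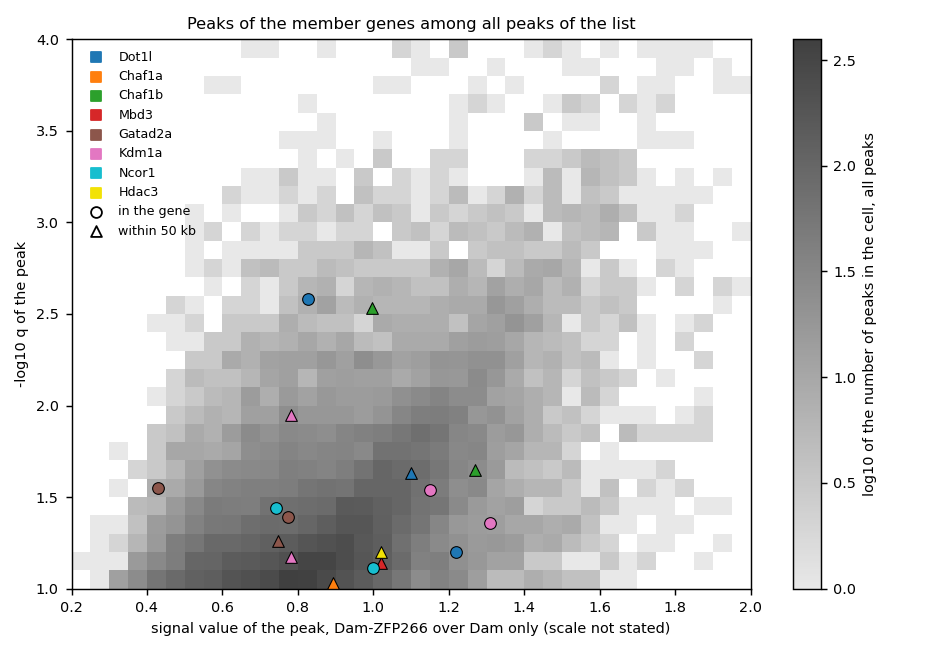
Signal value (x axis, scale not stated) and −log10 q (y axis) of the 17 peaks, coloured by gene, with circles for peaks in the gene and triangles for peaks within 50 kb; the grey cells count all peaks on a log10 scale, and 67 peaks lie beyond the axes. The *Dot1l* and *Chaf1b* peaks at a −log10 q of 2.58 and 2.53 stand above the other 15. A *Gatad2a* peak has the lowest signal value of the 17, 0.428, above only 0.999% of all peaks.

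*Dot1l*, which encodes the only known methyltransferase for its site in the core of histone H3, carried the best supported peak of the group. The gene lies on the plus strand of chromosome 10 from 80755203 to 80795461, and the peak covered 80758256 to 80761713, starting 3.05 kb after the transcript start in intron 1 (9077 bp). Its score was 1000 and its −log10 q of 2.58 was higher than in 95.3% of all peaks, whereas its signal value of 0.827 was higher than in only 37.5%. It spanned 2 fragments, of 2162 and 1296 bp. A shorter peak of 577 bp followed in the same intron from 80762613 to 80763189, and here the order was opposite, with a signal value of 1.22 (above 88.5% of peaks) and a −log10 q of 1.20 (above 34.4%). The longer peak in the gene thus had the higher support, and the shorter one the higher signal. The remaining peak lay 16817 bp downstream of the gene, from 80812279 to 80813716, and was fairly high in both, with a signal value of 1.10 (above 79.1% of peaks) and a −log10 q of 1.63 (above 73.2%). It covered exons 1 and 2 of *Jsrp1*, a gene for a protein of the muscle sarcoplasmic reticulum, and reached into its promoter. No other of the 17 peaks reached a promoter, taken as 1000 bp before to 100 bp after a transcript start.

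The longer intronic peak of *Dot1l* held 1 B1 SINE and 2 AP-1 motifs. The core motif of AP-1 was searched as TGACTCA or TGAGTCA, the same motif on either strand. The B1 SINE had 89.7% identity to the consensus over 146 bp and lay 1556 bp from the nearer motif, on the other fragment of the peak. The AP-1 motifs stood 105 bp apart, start to start. The neighbouring peak and the *Jsrp1* peak held 0 of either kind. The stretch with both motifs is shown because of this spacing, in GRCm38 and with the motifs in capitals, as in the sequences of the other genes.
Dot1l AP-1 pair (chr10:80758789-80758930, plus strand): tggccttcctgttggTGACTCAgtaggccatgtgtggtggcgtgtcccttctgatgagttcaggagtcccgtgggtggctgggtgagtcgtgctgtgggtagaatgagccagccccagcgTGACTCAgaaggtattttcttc

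The CAF-1 genes had peaks outside the gene only. *Chaf1b*, for the middle subunit that binds histones H3 and H4, lies on the plus strand of chromosome 16 from 93883901 to 93906106. The strongest support here came from a peak 4754 bp past its end, from 93910861 to 93916448. This peak was the longest of the 17 (5588 bp, longer than 98.2% of all peaks), spanned 6 fragments, and had a score of 1000 with a signal value of 0.996. It lay between genes, 2582 bp from *Cldn14*, a gene for a tight junction claudin. It held 3 B1 SINEs, all on the minus strand, and 2 AP-1 motifs, the nearest of which was 548 bp from a B1 SINE and is printed with its flanks in GRCm38. The other *Chaf1b* peak, from 93833934 to 93834336, lay 49564 bp upstream, just inside the 50 kb limit. It was the shortest of the 17 (403 bp), lay in intron 1 of *Morc3*, a gene for a nuclear ATPase, and had a signal value of 1.27 without a B1 SINE or AP-1 motif. Just outside the limit, the nearest peaks were one 53865 bp from *Kdm1a* and one 54994 bp from *Gatad2a*.
Chaf1b AP-1 (chr16:93914088-93914124, plus strand): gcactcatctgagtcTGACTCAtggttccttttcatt

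*Chaf1a*, for the large subunit of CAF-1, had 1 peak, 38937 bp upstream of its start (chromosome 17, 56000104 to 56001478). It was the weakest of the 17 by score (427, above 5.24% of peaks), and it covered exons 6, 7 and 8 of *Stap2*, an adaptor protein gene, with 289 coding bases. It held neither a B1 SINE nor an AP-1 motif, although the window of *Chaf1a* contained 36 B1 SINEs and 22 AP-1 motifs. Its GC content of 57.6% was the highest of the 17 peaks.

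The NuRD genes ranged from 0 to 3 peaks. *Gatad2a*, whose product joins the remodeller to the deacetylase part of NuRD, lies on the minus strand of chromosome 8 from 69907069 to 69996384 and held 2 peaks. The longer one, from 69936895 to 69942022 in intron 2, spanned 5 fragments and had the lowest signal value of the 17, 0.428, which was above only 0.999% of all peaks, at a −log10 q of 1.55. The other, from 69950678 to 69952303, lay in intron 1 and included 77 bp of exon 2, none of them coding, with a signal value of 0.773. Another peak, 8714 bp downstream (69896724 to 69898354, signal value 0.747), lay in intron 2 of *Ndufa13*, which encodes a subunit of mitochondrial complex I. It held 1 AP-1 motif and 0 B1 SINEs.

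Within *Gatad2a*, the peak in intron 2 held 2 B1 SINEs and 0 AP-1 motifs, whereas the peak at exon 2 held 1 of each, only 14 bp apart. This B1 SINE had an identity of 96.6% to the consensus, the highest of the 20 B1 SINEs in the 17 peaks. Among all peaks with both features, the median distance between the nearest B1 SINE and AP-1 motif was 417 bp, and 8.87% had them at most 50 bp apart. The closest match in the intron 2 peak had an identity of 93.1%. The motif of the *Ndufa13* peak, the only motif of the 17 peaks found without a B1 SINE in its peak, is printed with its flanks in GRCm38.
Gatad2a downstream AP-1 (chr8:69897666-69897702, plus strand): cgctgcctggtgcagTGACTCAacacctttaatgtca

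*Mbd3*, for the scaffold of one form of NuRD, is the shortest of the 9 genes (6.99 kb, chromosome 10, 80392539 to 80399531, minus strand). Its only peak lay 21975 bp downstream, from 80369742 to 80370563, and 4252 bp from *Plk5*, a polo-like kinase gene. With a signal value of 1.02 and a score of 471, it consisted of a single fragment of 822 bp and held 1 B1 SINE of 92.6% identity on the minus strand.

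*Chd4*, for the remodelling ATPase of NuRD, had no peak within 50 kb (chromosome 6, 125095981 to 125130591). The nearest, from 125251819 to 125253885, lay 14791 bp from *Cd27*, a gene for a receptor of lymphocytes. B1 SINEs were not scarce around *Chd4*, with 45 in its window (0.334 per kb, against 0.369 per kb over the 9 windows together). AP-1 motifs were, with 11 in the window (0.0817 per kb), the lowest number of the group, compared with 0.182 per kb over the 9 windows. Fragments of at least 1 kb made up 6.21% of the fragments in the window, within the range of 5.26 to 12.0% over the 9 genes. A peak in the gene or within 50 kb was found for 49.7% of all protein-coding genes, so its absence is common. Whether motif number or fragment length bears on the absence at *Chd4* was not tested.

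*Kdm1a*, for the demethylase LSD1, had the most peaks, 4, and 91.3% of protein-coding genes had fewer. The gene lies on the minus strand of chromosome 4 from 136550533 to 136602723. A pair of peaks lay inside it, 33.3 and 31.9 kb from the gene start and only 266 bp apart. The former, a single fragment of 512 bp from 136568932 to 136569443, lay in intron 8 with a signal value of 1.15. The latter, from 136569710 to 136570813, reached from intron 8 through exon 8 (82 coding bases) into intron 7 and had the highest signal value of the 17 peaks, 1.31, above 92.6% of the list. These were the only peaks inside a member gene that had both a q under 0.05 and a signal value above 1. The other peaks of *Kdm1a* lay 15585 and 41521 bp downstream (136532237 to 136534947 and 136506196 to 136509011), in introns 2 and 1 of *Luzp1*, which encodes a cytoskeletal protein. Their signal values were alike, 0.782 and 0.783, and each held 2 B1 SINEs and 0 AP-1 motifs.

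The *Kdm1a* peak with the highest signal value also held the densest AP-1 motifs. There were 3 motifs, each 35 bp after the one before, in an imperfect tandem repeat. The unit of 35 bases starting at the second motif shared 34 bases with the one before it, and the unit at the last motif shared 22. Among all peaks, 0.450% (68 peaks) had 3 AP-1 motifs starting within 100 bp. A B1 SINE of 73.1% identity lay across the edge of this peak, with 82 of its 138 bp inside, because the GATC at which the peak starts is part of the element. The peak in intron 8 held 1 B1 SINE of 87.1% identity. The repeat is printed in GRCm38 to show the units, with the motifs in capitals.
Kdm1a AP-1 triplet (chr4:136570105-136570241, plus strand): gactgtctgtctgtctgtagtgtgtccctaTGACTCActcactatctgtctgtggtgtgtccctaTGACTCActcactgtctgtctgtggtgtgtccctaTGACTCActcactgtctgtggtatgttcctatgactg

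*Ncor1*, for the corepressor that binds and activates HDAC3, is the longest gene of the group (chromosome 11, 62316426 to 62457332, minus strand) and held both of its peaks within the gene. They lay in the first part of the gene, 7.02 and 11.7 kb from the gene start. Both were in intron 1 (18632 bp) of the longest curated transcript at the peaks, which has only 9 exons. The peak nearer to the start, from 62446290 to 62450309, had a signal value of 0.999 and a −log10 q of 1.11. The other, from 62443269 to 62445607, was a single fragment of 2339 bp with a signal value of 0.741 and a −log10 q of 1.44. A further transcript start of *Ncor1* lay 4.75 kb from it, deeper in the gene. Both peaks thus lie upstream of a transcript that begins there. No curated transcript that reaches the far end of the gene covers the peaks. They count as within *Ncor1* only through the 9-exon transcript, which ends earlier. B1 SINEs were frequent, 3 in the latter peak and 2 in the former, all on the plus strand and 3 of them of over 90% identity. The former peak also held 1 AP-1 motif, 2331 bp from the nearest B1 SINE. The B1 SINE closest to the consensus had an identity of 93.8% in both peaks. The motif, the only one of the 10 that reads TGAGTCA on the plus strand, is printed in GRCm38.
Ncor1 AP-1 (chr11:62449959-62449995, plus strand): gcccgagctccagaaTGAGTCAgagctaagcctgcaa

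*Hdac3*, for the deacetylase of the same complex, had 1 distant peak (chromosome 18, 38000701 to 38001783), 45712 bp upstream of the gene at 37936971 to 37954988. It lay 1731 bp from *Arap3*, a gene for a regulator of small GTPases, with a signal value of 1.02 and a −log10 q of 1.20. It held 1 B1 SINE of 90.3% identity and 0 AP-1 motifs. By the gene extents used here, the corepressor had peaks inside the gene and its enzyme had none. For the corepressor this rests on the 9-exon transcript alone.

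Taking the 17 peaks together, B1 SINEs were more frequent than over the whole list, and AP-1 motifs were near their overall share. A B1 SINE of at least 80 bp and 70% identity shared a base with 12 of the 17 peaks, compared with 32.9% of all peaks. The surroundings of these genes are themselves rich in B1 SINEs, with a median of 34 in the 50 kb on either side of the 17 peaks (range 24 to 67), compared with 12 around all peaks. Among the 4273 peaks whose surroundings held 24 to 67 B1 SINEs, a comparison chosen after the values were seen, 57.8% had one, beside the 12 of 17 (70.6%). The part of the surroundings in the B1 SINE count was not tested. An AP-1 motif was present in 6 of the 17 peaks, compared with 44.2% of all peaks, and both features in 5, compared with 14.5% of all peaks. The 5 were the long *Dot1l* and *Chaf1b* peaks, the *Gatad2a* peak at exon 2, the *Kdm1a* peak at exon 8 and the *Ncor1* peak nearer to the start. Neither feature was found in 4 of the 17 (23.5%), compared with 37.3% of all peaks. Of the 8 peaks inside the genes, 7 held a B1 SINE, 4 an AP-1 motif and 4 both, beside 35.6%, 41.9% and 14.7% of all peaks in protein-coding genes.

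Counted per length, the 17 peaks held 0.546 B1 SINEs and 0.273 AP-1 motifs per kb, whereas all peaks held 0.228 and 0.328. Over the 9 windows there were 491 B1 SINEs, 0.369 per kb against 0.106 per kb genome-wide, and 243 AP-1 motifs, 0.182 per kb against 0.164. Peaks covered 2.75% of the windows and contained 4.07% of their B1 SINEs and 4.12% of their AP-1 motifs. Genome-wide, peaks covered 1.18% of the sequence and contained 2.54% of the B1 SINEs and 2.37% of the AP-1 motifs. Most B1 SINEs near these genes therefore lay outside any peak. Of the 20 in peaks, 13 had an identity of at least 90%, as had 3578 of the 7150 in all peaks, and 18 lay wholly inside the peak.

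Further features of the peaks inside the genes, some of them found in only part of the 8 peaks, were noticed after the values were seen. Each of the 4 genes with a peak held 2, and 40.3% of all protein-coding genes with a peak in the gene held 2 or more. In *Dot1l*, *Kdm1a* and *Ncor1* the peaks lay 899, 266 and 682 bp apart, so that 6 of the 17 peaks had a neighbour less than 1 kb away, compared with 19.4% of all peaks. In *Gatad2a* they lay 8655 bp apart. The gap consisted of 6 fragments of 57 to 397 bp in *Dot1l*, of a single fragment of 266 bp in *Kdm1a*, and of fragments of 122 and 560 bp in *Ncor1*. A B1 SINE touched each of these 3 gaps, of 74.7%, 73.1% and 83.8% identity, and the one in *Kdm1a* is the element at the peak edge. Over the whole list, 16.2% of 1614 gaps under 1 kb were touched by a B1 SINE, and the part of the B1-rich surroundings in this count was not tested. Of the 11 B1 SINEs in peaks inside the genes, 10 lay antisense to the gene, all of them in the minus-strand genes *Gatad2a*, *Kdm1a* and *Ncor1*, and that of *Dot1l* lay in the sense direction. For B1 SINEs in peaks within any protein-coding gene, 62.7% were antisense. Nearest outside the *Ncor1* peaks, B1 SINEs also lay mostly on the plus strand, whereas those nearest outside the *Kdm1a* pair lay on the minus strand. The part of the surroundings in the antisense count was not tested.

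**Figure D3:**
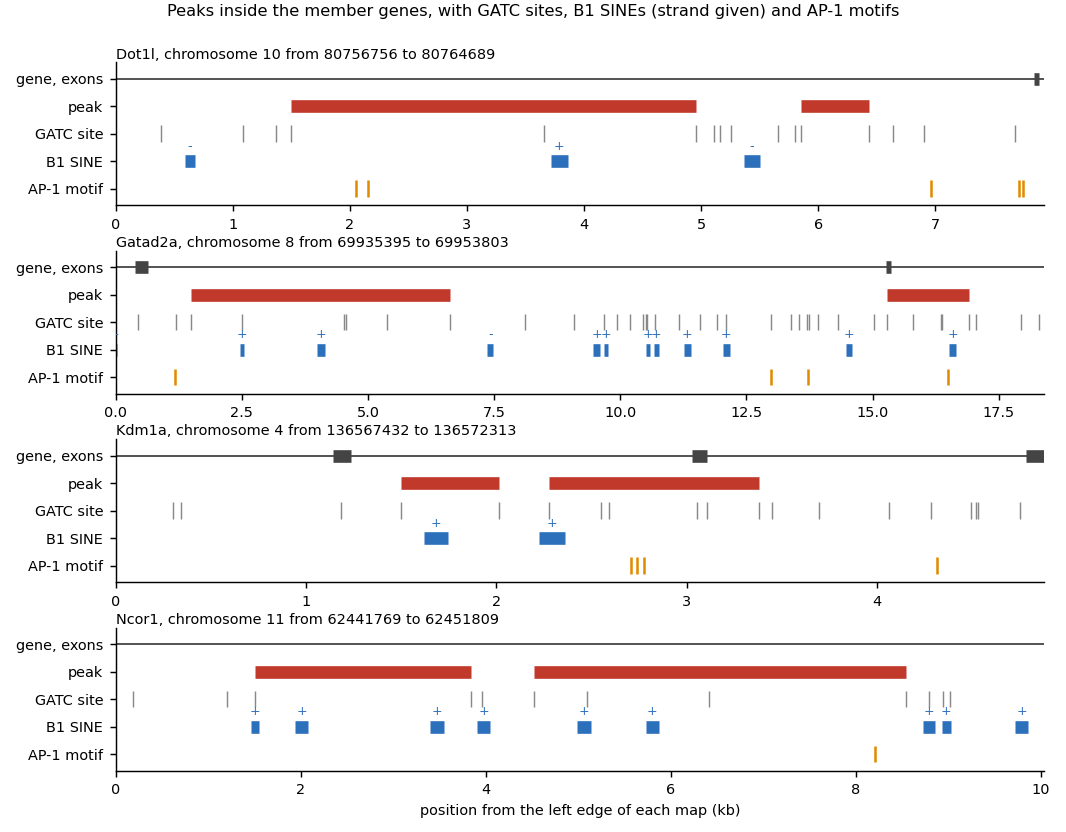
The peaks inside *Dot1l*, *Gatad2a*, *Kdm1a* and *Ncor1*, with position in kb on the x axis and rows for exons, peaks, GATC sites, B1 SINEs (strand above) and AP-1 motifs. Peak edges coincide with GATC sites, and the peaks of *Dot1l*, *Kdm1a* and *Ncor1* are separated by 899, 266 and 682 bp.

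Other genes of the DOT1L, CAF-1, NuRD and LSD1 complexes were counted in the same way, and partners of NCoR are not included in these counts. Of 24 such genes, with *Rbbp4* in a pair of lists and counted once, 15 had a peak in the gene or within 50 kb (all protein-coding genes 49.7%) and 7 had one in the gene (all protein-coding genes 17.1%). With so few genes in each list, counts such as 0 of 3 or 1 of 6 lie near that overall share. The 5 of 12 for NuRD is higher, and no list was tested. The partners of DOT1L included *Mllt3*, a reader of histone acylation, which held 5 peaks in its 263 kb (highest signal value 0.899). The shorter *Mllt1* (42.8 kb), *Mllt6* (22.0 kb) and *Mllt10* (157 kb) held none in the gene. None of the histone chaperone genes listed with CAF-1, *Rbbp4*, *Asf1a* and *Asf1b*, held a peak in the gene, although *Rbbp4* had 4 within 50 kb. Among 12 NuRD genes, 5 held a peak. *Hdac2*, a deacetylase, held 4 in its 27.3 kb (highest signal value 1.21) with 0 AP-1 motifs or B1 SINEs in any of them, and *Gatad2b*, the paralogue of *Gatad2a*, held 3 (highest 1.07). *Mta1*, *Mta3* and *Mbd2* held 1 each, with signal values of 0.914, 0.927 and 0.946. In the LSD1 complex, *Rcor1*, the scaffold that links LSD1 to deacetylases, was the only one of 6 genes with a peak in the gene, which had a signal value of 0.661, 4 B1 SINEs and 1 AP-1 motif.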

How the data were processed

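DamID-seq of MEFs was analysed from the authors' deposited list, in which 5 Dam-ZFP266 and 5 Dam only samples are pooled. The authors trimmed reads with Cutadapt, aligned them with BWA to GRCm38 (GRCm38.p6 in the submitters' notes, which also name FastQC), removed mitochondrial and blacklisted reads, used Rsubread to count the reads of each DpnII fragment, and called peaks by Daim. Versions of FastQC, Cutadapt, BWA, Rsubread and Daim are not given in the sources used here. The deposited columns used are the peak score, the signal value and the −log10 q, all as the authors' caller wrote them; the −log10 p was not used here. Read depth per sample is unknown.

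Gene extents are those of curated RefSeq transcripts (37867 mRNAs) in GRCm38.p6, the build of the peaks. Intron and exon numbers refer to the longest curated transcript at the peak. B1 SINEs were found with blastn 2.17.0 (70% identity over 80 bp or more, e-value limit 10) using a 145 bp consensus read by eye from a figure image of the study, on which all B1 SINE counts and identities rest, giving 281222 elements, and AP-1 motifs were exact matches. Sequences were read with samtools 1.23.1 and pysam 0.24.0, tables were made with Python 3.11.15, numpy 2.4.6 and pandas 2.3.3, and figures with matplotlib 3.10.9. The steps were tested on simulated data.

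The members and lists were chosen with earlier results of these data known. Named genes are the 9 members, the gene in which or nearest to which each of their peaks lies, and genes of the complex lists with a peak in the gene; *Cd27* and the list genes without a peak were named after the values were seen. Lists were described by counts beside those of all genes or peaks, with no test. Some sequences and a list of further genes are not reported here. The comparison with genes in the wide length range of the 9 members was chosen after the values were seen. The same holds for those with genes that hold a peak, with gaps under 1 kb and with peaks in B1-rich surroundings. Windows, peak subsets, gene extents and the definitions of both features were varied.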

Additional observations from a re-analysis of the deposited data

How the results depend on the processing

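No paired analysis was possible because the peaks were called on all samples together, so the replicate numbers shared by the labels have no values to pair; whether the authors' test behind the q values used them is not stated. For the same reason no replicate could be left out. Of 41 alternative counts, 24 were within 1.5 times of the reported count and 17 were not.

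With only peaks of q under 0.05 and a signal value above 1, 3 genes had a peak within 50 kb (21.9% of all genes) and 1 in the gene (5.99%), with 4 peaks, of which 2 had a B1 SINE, 1 an AP-1 motif and 1 both (34.3%, 38.2% and 12.6% of all such peaks). With the peaks of higher score, 5 genes had a peak within 50 kb (32.7% of all genes), with 10 peaks. A window of 10 kb left 5 genes (27.2% of all genes) and 10 peaks, and a window of 100 kb gave 27 peaks, 11 with an AP-1 motif and 8 with both, for 8 genes (65.4% of all genes). These alternatives use fewer or more peaks by construction. With the longer AP-1 motif (ATGACTCA or TGACTCAT and their complements), 3 peaks had one and 3 had both (26.3% and 8.32% of all peaks), and in the central 500 bp of the peak 3 had a motif and 2 had both (15.7% and 4.54% of all peaks). Gene extents with predicted transcripts, the midpoint rule and the 3 other B1 SINE definitions moved no count by over 1.5 times. Unknown depth and the length of the fragments limit where a peak could be seen.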
